A study of Homo sapiens with 6 samples.

Results

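The genes described here encode the proteins of the mitochondrial ribosome, and were chosen by their symbols: every entry of the deposited expression table that is named MRPL or MRPS followed by a number, with or without a final A, B or C. The rule found 78 genes of 59050 entries, 49 of the large subunit (MRPL) and 29 of the small subunit (MRPS), and all 78 were among the 15272 entries with a mean of at least 1 TPM (transcript abundance scaled to the same total in each library) that were tested. RNA was sequenced from cultures of HFF, a human fibroblast line, that had been infected at about passage 18 with a lentivirus made in HEK293T cells and selected with 200 µg/ml neomycin. Both groups carried the vector pLNC ER:RAS, whose product is an H-RAS with the G12V change that answers to the drug 4-hydroxytamoxifen (4-OHT). Cells of the first group received 100 nM 4-OHT and were harvested a week later, when they were described as senescent. The second group is labelled DMSO, a solvent in which such drugs are given. Each group had 3 libraries, and no uninfected cells are among them. The labels do not say whether the libraries of a group came from separate cultures, so every p-value below rests on the spread of these libraries alone, which may be technical.

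Mitochondria make the few proteins that their own DNA encodes on ribosomes of their own. The RNA of these ribosomes comes from the mitochondrial genome, while every one of their proteins is encoded in the nucleus, made in the cytosol and imported. Some of these proteins descend from bacterial ribosomal proteins, and others exist only in mitochondria. The small subunit reads the messenger RNA, and the large subunit joins the amino acids and releases the chain at the inner membrane, where it becomes part of the respiratory chain.

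Of the 10 fibroblast markers listed all 10 were expressed, and their levels summed to between 19101 and 19509 TPM in 4-OHT and between 20227 and 20826 TPM in DMSO, with 3 higher and 7 lower. The keratinocyte marker KRT1 and the melanocyte marker DCT were listed at 0 in all 6 libraries. The 6 keratinocyte and epithelial markers summed to between 32.8 and 43.2 TPM in 4-OHT and between 37.5 and 52.5 TPM in DMSO. Nearly all of it was KRT10 (37.3 ± 5.26 against 45.2 ± 8.11 TPM, not called). EPCAM was lower in 4-OHT (0.5997 ± 0.135 against 1.55 ± 0.132 TPM), but reached a mean of 1 TPM only through its DMSO values. Summed markers lay between 0.898 and 1.48 TPM in 4-OHT and between 0.405 and 0.639 TPM in DMSO for endothelium, between 4.49 and 10.02 against between 2.64 and 4.6 TPM for immune cells, and between 0.674 and 1.14 against between 1.39 and 2.66 TPM for melanocytes. Their part in the results below was not tested. The HRAS entry, which does not separate the introduced from the cells' own transcript, stood at 1316, 1305 and 1222 TPM in 4-OHT and at 942, 908 and 956 TPM in DMSO. In bulk RNA, fewer cells with a transcript and less of it in each cell cannot be told apart. Group means are given with their SD over 3 libraries, and a log2 fold change is the difference of mean log2(TPM + 1), DMSO subtracted from 4-OHT.

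The mitochondrial ribosome genes moved in both directions. In 4-OHT 13 of the 78 rose and 19 fell, and 46 did not pass limma's test at an adjusted p of 0.05. The 32 called genes make up 41.0% of the members, where 49.6% of all entries tested were called (19.8% higher and 29.9% lower). Among entries at a mean of 10 TPM or more, the range in which all members lie, 57.0% were called. The median log2 fold change of the members was 0.01, against -0.09 over all entries tested and -0.02 over those of at least 10 TPM. In 38 members (48.7%) the ranges of the groups did not overlap, 14 of them higher and 24 lower in 4-OHT, against 59% of all entries (23.8% higher and 35.2% lower). Of the 32 called genes 31 had groups that did not overlap, MRPS27 being the exception. Of the called members 7 of the 78 moved by 0.5 log2 units or more, and MRPS6 alone by 1 or more, where 30.5% and 12.4% of all entries tested were called with changes of that size.

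In the values as deposited as many genes of the large subunit rose as fell. More genes of the small subunit fell than rose, which was also so over all entries (19.8% rose and 29.9% fell). These balances shifted under median-of-ratios scaling. Among the large subunit's 49 genes 11 rose and 11 fell (22.4% each, 44.9% called against 49.6% of all entries), with a median log2 fold change of 0.05. Among the small subunit's 29 genes 2 rose and 8 fell (6.9% and 27.6%, 34.5% called), with a median of -0.08, and 19 of the 29 did not pass. Its share of falls was thus near that of all entries. The medians differed by 0.14 log2 units, and by 0.04 without the third 4-OHT library. The median log2 level of the large subunit exceeded that of the small subunit by 0.55, 0.47 and 0.48 in the 4-OHT libraries and by 0.52, 0.39 and 0.40 in the DMSO libraries, so that the groups overlapped. Under median-of-ratios scaling, which raised all log2 fold changes by a median of 0.11, 18 genes of the large subunit rose and 7 fell, and 6 of the small subunit rose and 5 fell, against 26.4% and 23.5% of all entries. Under quantile normalization the counts were 10 and 12 for the large and 3 and 10 for the small subunit, against 23.9% and 23.6% of all entries.

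**Figure D1:**
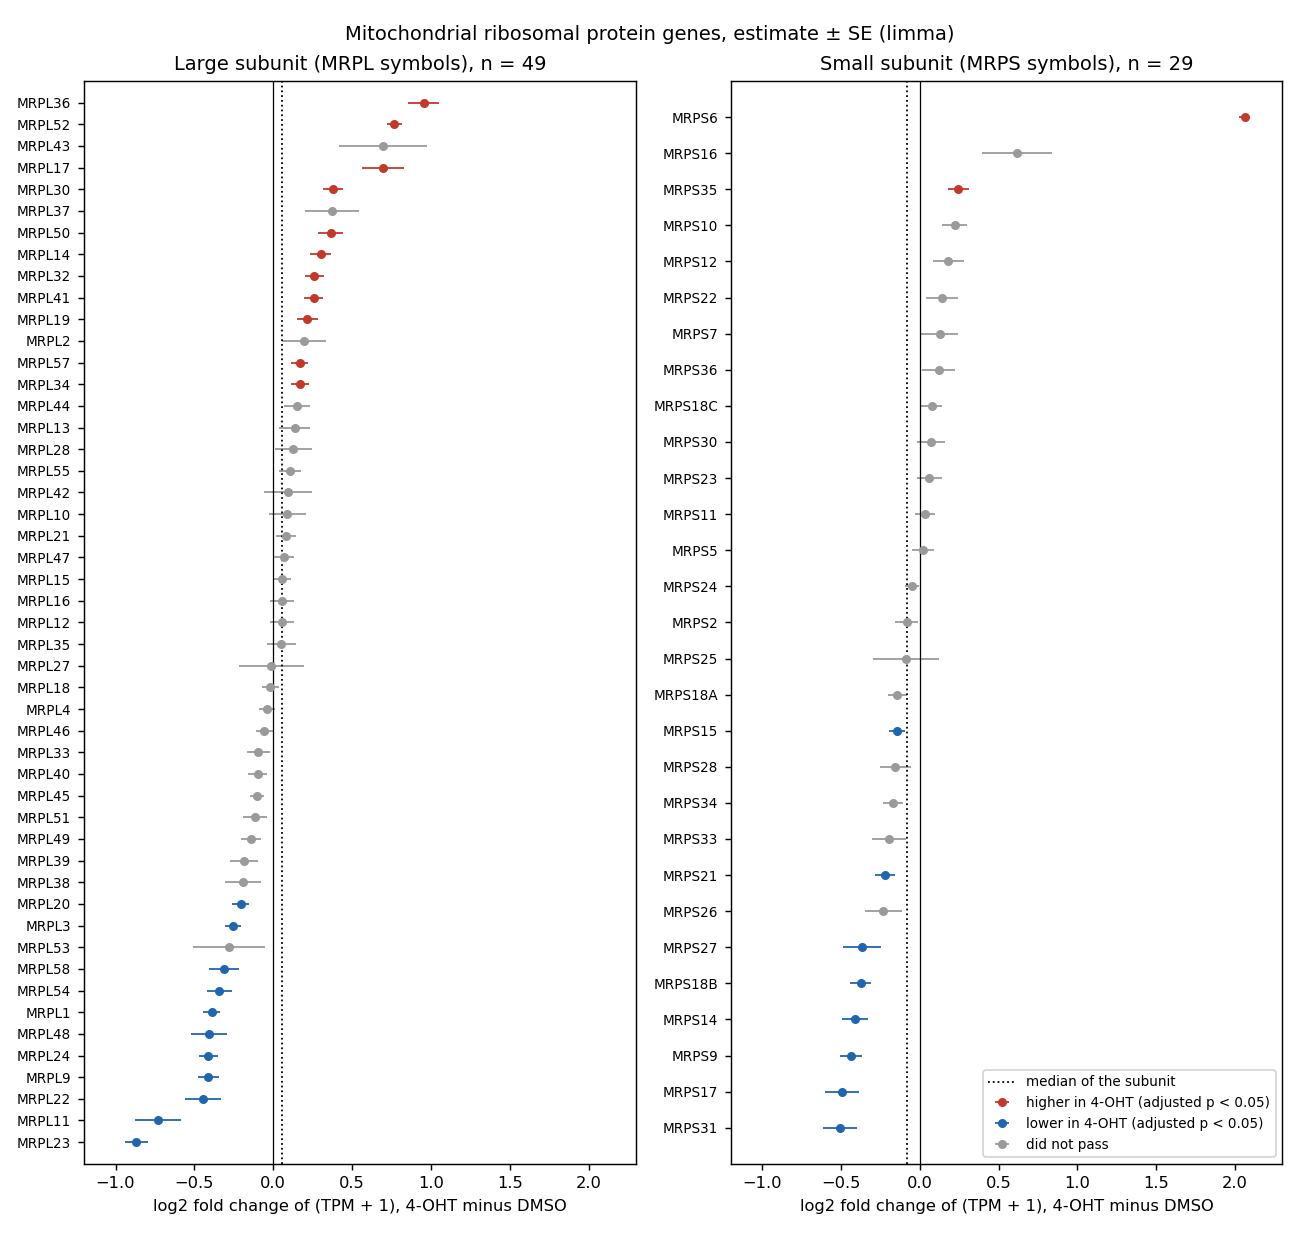
Log2 fold change of (TPM + 1), 4-OHT minus DMSO, of each of the 78 genes (points, with the SE of limma's estimate as bars), the large subunit on the left and the small subunit on the right; colour marks genes that passed the test at an adjusted p of 0.05, and the dotted lines are the subunits' medians of 0.05 and -0.08. MRPS6 at 2.06 stands apart from the other genes, which lie between -0.87 and 0.95.

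Members were also classed as having a bacterial counterpart or as specific to mitochondria, and both classes held rises and falls. Of 46 members with a bacterial counterpart 8 rose and 13 fell (45.7% called, median 0.05). Of 31 classed as specific to mitochondria, among them MRPS18A, MRPS18B and MRPL58, 5 rose and 6 fell (35.5% called, median -0.10). These classes do not settle descent. MRPS18A and MRPS18B are paralogues of MRPS18C, which is classed as having a bacterial counterpart. Over all entries tested 49.6% were called, 19.8% higher and 29.9% lower, with a median of -0.09. MRPS36 is in neither class, since its product is now known as part of a metabolic enzyme complex and not of the ribosome. It stood at 30.5, 38.4 and 29.7 TPM in 4-OHT and at 28.7, 30.1 and 31.2 TPM in DMSO (log2 fold change 0.12, adjusted p = 0.374). MRPS18A and MRPS30 carry small-subunit symbols but sit in the large subunit. Counted by place in the ribosome, 11 of 51 large-subunit genes rose and 11 fell, and 2 of 26 small-subunit genes rose and 8 fell, against the same shares of all entries.

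Added up, the members took a somewhat larger share of the TPM in 4-OHT, while the sums without MRPS6 depended on the scaling. Their summed level was 6351, 6383 and 6185 TPM in 4-OHT and 5912, 5664 and 5789 TPM in DMSO, and every 4-OHT library lay above every DMSO library. That is 0.635, 0.638 and 0.619% of all TPM against 0.591, 0.566 and 0.579%. Without MRPS6 the sums were 5713, 5740 and 5554 TPM against 5758, 5515 and 5635 TPM, which overlap. The large-subunit sum was 3972, 3989 and 3882 TPM in 4-OHT and 3973, 3736 and 3808 TPM in DMSO, again overlapping. For the small subunit it was 2379, 2394 and 2303 TPM against 1939, 1928 and 1981 TPM, but 1741, 1750 and 1672 TPM against 1785, 1780 and 1827 TPM once MRPS6 was left out. As deposited, the small subunit's sum was thus higher in 4-OHT with MRPS6 and lower without it, with no overlap either way. Under median-of-ratios scaling that was not so: without MRPS6 the small-subunit sum was 1810.5, 1793 and 1717 in 4-OHT and 1696, 1679.7 and 1733 in DMSO, which overlap. The sum of all members without MRPS6 lay between 5701 and 5940.35 in 4-OHT and between 5206 and 5469.6 in DMSO on that scale, without overlap, and the large-subunit sum between 3985 and 4129.9 against between 3526 and 3774. MRPS6 accounted for 26.8, 26.9 and 27.4% of the small-subunit sum in 4-OHT and for 7.94, 7.70 and 7.77% in DMSO. The ratio of the large to the small sum was 1.67, 1.67 and 1.69 against 2.05, 1.94 and 1.92 with MRPS6, and 2.28, 2.28 and 2.32 against 2.23, 2.10 and 2.08 without it.

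**Figure D2:**
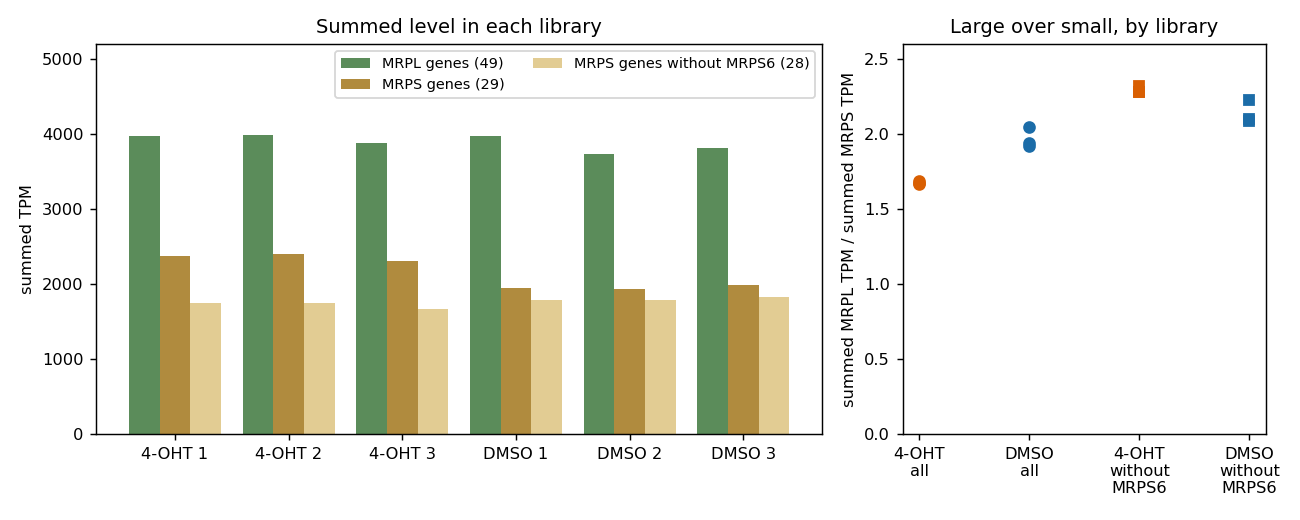
Left, the summed level in TPM of the 49 MRPL genes, the 29 MRPS genes and the 28 MRPS genes other than MRPS6 in each of the 6 libraries (bars); right, the summed MRPL level divided by the summed MRPS level in each library (1 point per library), with MRPS6 (circles) and without it (squares). With MRPS6 the ratio is lower in every 4-OHT library (1.67 to 1.69) than in every DMSO library (1.92 to 2.05), and without it the order is turned (2.28 to 2.32 against 2.08 to 2.23).

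MRPS6 (chromosome 21, 34073224 to 34143034, plus strand, GRCh38) encodes bS6m, a small-subunit protein with a bacterial counterpart. It was read at 637, 644 and 631 TPM in 4-OHT and at 154, 148 and 154 TPM in DMSO, and the groups lay far apart. The means were 637 ± 6.23 and 152 ± 3.20 TPM (n = 3 each), a 4.19-fold rise (log2 fold change 2.06, SE 0.0342, adjusted p = 7.48e-08). In DMSO it ranked second among the small-subunit genes after MRPS24, and in 4-OHT it ranked first. MRPS6 shares its first exon with another gene. SLC5A3, which encodes a transporter of myo-inositol, begins within the same exon on the same strand (34073570 to 34106262) and keeps its whole coding sequence in a second exon inside the first intron of MRPS6. Its main annotated transcript is 990 bases long, and 176 of them (34073570 to 34073745, 17.8% of its length) are also the first exon of SLC5A3, of whose 11576 bases they are 1.52%. SLC5A3 stood at 155, 157 and 162 TPM in 4-OHT and at 18.5, 21.4 and 18.2 TPM in DMSO (log2 fold change 2.97, adjusted p = 2.6e-07). Both entries rose, and the part of reads from the common exon in the rise of MRPS6 was not tested.

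**Figure D3:**
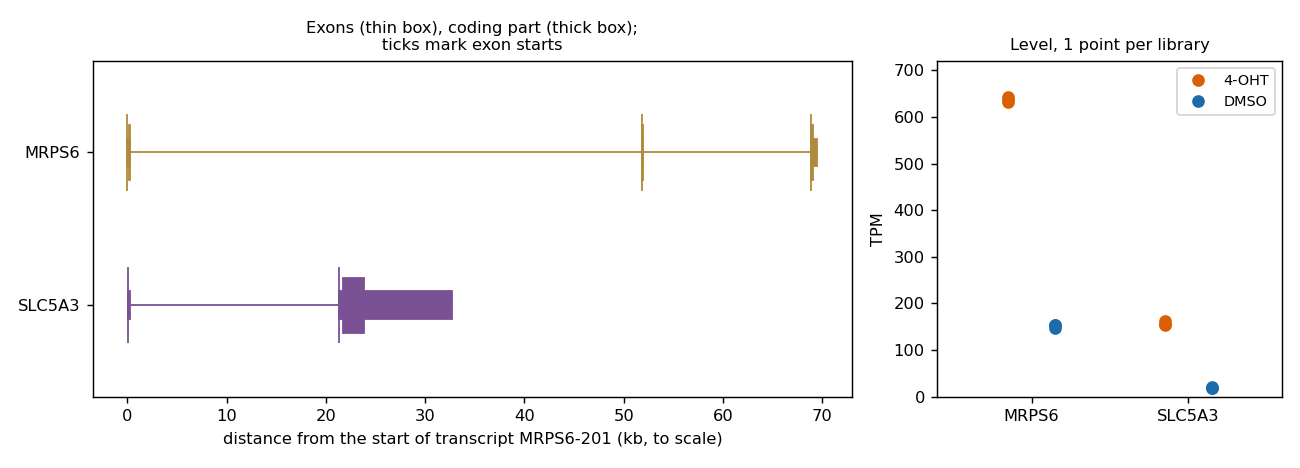
Left, the exons of the main MRPS6 transcript and of SLC5A3, drawn to scale against the distance in kb from the start of the former (thin boxes are exons, thick boxes their coding part, ticks mark exon starts); right, the TPM of both genes, 1 point per library. The transcripts overlap in the first exon only, and for both genes the 3 4-OHT points lie above the 3 DMSO points.

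In the large subunit the largest rise was that of MRPL36 (chromosome 5, 1798386 to 1801366, minus strand), which encodes bL36m, one of the smallest proteins of the ribosome. It was read at 181, 172 and 160 TPM in 4-OHT and at 93.6, 74.96 and 95.5 TPM in DMSO. Its means of 171 ± 10.6 and 88.0 ± 11.4 TPM differed 1.94-fold (log2 fold change 0.95, SE 0.0989, adjusted p = 0.000217), and it moved from rank 21 to rank 3 in its subunit. MRPL52, found only in mitochondria, stood at 157, 155 and 154 TPM against 86.5, 95.3 and 90.7 TPM. That is a 1.71-fold rise (0.77, SE 0.0481, adjusted p = 1.7e-05) with a spread of 1.61 TPM among the 4-OHT libraries.

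MRPL17 encodes bL17m, which lies near the exit of the tunnel through which the new chain leaves. It stood at 111, 132 and 137 TPM in 4-OHT and at 93.2, 75.8 and 65.7 TPM in DMSO (0.70, SE 0.134, adjusted p = 0.00429). MRPL30, of the bacterial uL30 family, was lower in level, at 29.6, 28.9 and 27.5 TPM against 22.9, 21.1 and 21.4 TPM (0.38, SE 0.0655, adjusted p = 0.00259). For each of these 4 genes the libraries of the groups did not overlap. The other 7 large-subunit genes that rose did so by 0.17 to 0.36 log2 units, among them MRPL50, MRPL14, MRPL32 and MRPL41. MRPL41, at 182 ± 8.72 against 152 ± 9.46 TPM, was the second most abundant large-subunit gene in 4-OHT.

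MRPL23 fell most (chromosome 11, 1947278 to 1984522, plus strand). Its product uL23m stands at the tunnel exit, where the ribosome meets the membrane. It was read at 54.8, 61.4 and 53.3 TPM in 4-OHT and at 106, 110 and 95.8 TPM in DMSO, without overlap. The means were 56.5 ± 4.30 and 104 ± 7.17 TPM, a 1.84-fold drop (-0.87, SE 0.0753, adjusted p = 8.84e-05) that took it from rank 12 to rank 29 in its subunit. MRPL11 (chromosome 11, 66435075 to 66466738, minus strand), the base protein of the stalk that receives the translation factors, stood at 32.9, 24.7 and 37.7 TPM against 51.8, 56.9 and 49.6 TPM. It fell 1.66-fold (-0.73, SE 0.146, adjusted p = 0.00498).

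The other stalk proteins did not pass the test. MRPL10 was at 40.3, 39.6 and 33.6 TPM in 4-OHT and at 30.0, 39.3 and 37.7 TPM in DMSO (0.09, adjusted p = 0.561). MRPL12 was at 135, 161 and 158 TPM against 150, 137 and 151 TPM (0.05, adjusted p = 0.593). Groups overlapped for both, and neither difference from MRPL11 was tested. At the tunnel exit MRPL45, which holds the ribosome to the inner membrane, stood at 57.5, 58.7 and 59.6 TPM against 62.7, 62.1 and 64.0 TPM. Its groups did not overlap, yet the difference did not pass the test (-0.10, adjusted p = 0.104). It was 0.02 under median-of-ratios scaling, but passed under quantile normalization (-0.13, adjusted p = 0.0417) and when low entries were kept in (adjusted p = 0.0444).

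Next among the decreases of the large subunit came MRPL22, at 22.6, 25.4 and 21.1 TPM against 33.2, 35.0 and 27.2 TPM (-0.45, SE 0.112, adjusted p = 0.014, rising to 0.0623 when low entries were kept in). MRPL9, a long protein of the surface of the subunit in bacteria, stood at 74.5, 79.9 and 84.5 TPM against 111, 99.3 and 108 TPM (-0.41, SE 0.0659, adjusted p = 0.00183). MRPL24 (-0.41) and MRPL1 (-0.39) fell by nearly as much, and all 11 decreases of the subunit lay between -0.87 and -0.21. MRPL58 is a peptidyl-tRNA hydrolase that became a structural protein of the mitochondrial ribosome. It was at 41.9, 38.5 and 33.3 TPM against 50.7, 45.4 and 45.45 TPM (-0.31, adjusted p = 0.028). That call was lost under 6 alternatives, with an adjusted p of 0.137 under median-of-ratios scaling, 0.0985 when low entries were kept in, 0.0577 or 0.0631 without 4-OHT replicate 2 or 3, and 0.0869 or 0.051 without DMSO replicate 1 or 3.

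**Figure D4:**
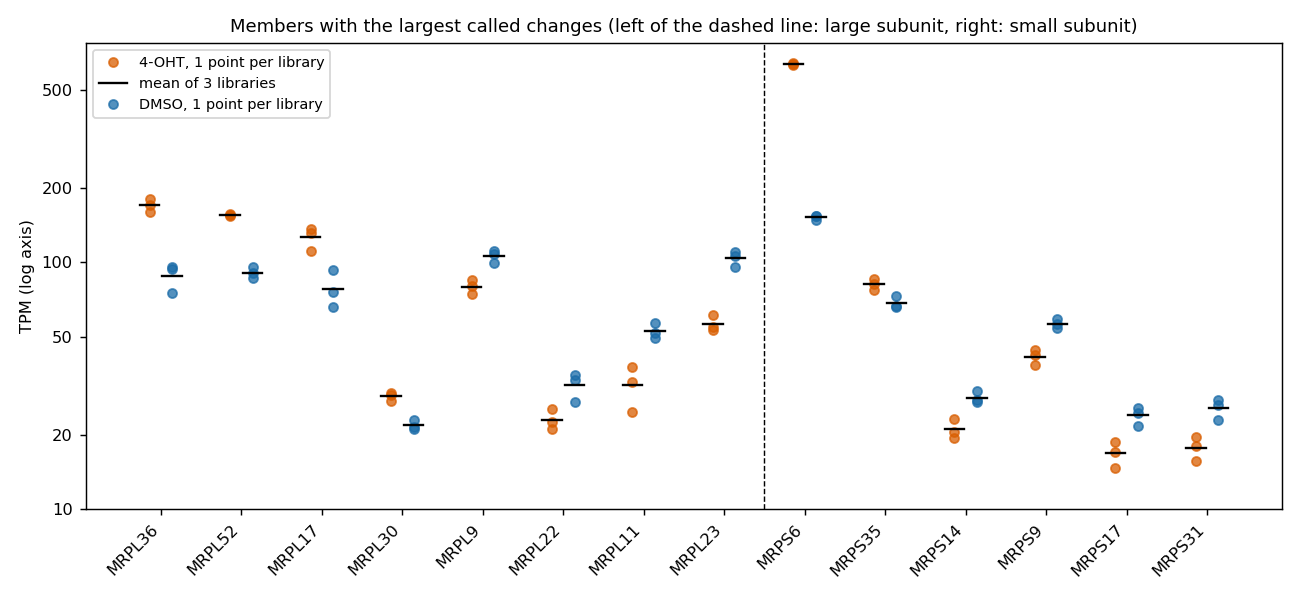
Level in TPM (log axis) of the genes with the largest called changes in each subunit, 1 point per library with the group mean as a line. In each gene the 3 4-OHT points (orange) lie entirely above or entirely below the 3 DMSO points (blue), and MRPS6 at 631 to 644 TPM is the highest.

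Apart from MRPS6, the called changes of the small subunit were decreases, save that of MRPS35. MRPS35 encodes a protein found only in mitochondria, and was at 81.4, 85.8 and 77.0 TPM in 4-OHT against 65.7, 73.1 and 66.7 TPM in DMSO (0.25, SE 0.0636, adjusted p = 0.0158). Its call was lost without the second 4-OHT library (adjusted p = 0.0529) and without the first DMSO library (adjusted p = 0.051). MRPS31, also found only in mitochondria, fell most. It stood at 18.1, 15.6 and 19.5 TPM against 22.9, 26.3 and 27.6 TPM (-0.51, SE 0.106, adjusted p = 0.00634).

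The next decreases were in genes with bacterial counterparts. MRPS17 was at 17.1, 18.7 and 14.6 TPM against 21.7, 25.7 and 24.5 TPM (-0.49, SE 0.108, adjusted p = 0.00764). MRPS9 (uS9m, whose end reaches towards the transfer RNA in the bacterial ribosome) was at 42.2, 44.0 and 38.3 TPM against 54.1, 59.1 and 56.2 TPM (-0.44, SE 0.0691, adjusted p = 0.00174). MRPS14 was at 19.4, 23.3 and 20.6 TPM against 27.7, 30.0 and 27.1 TPM (-0.41, SE 0.0851, adjusted p = 0.00605). In MRPS31, MRPS17, MRPS9 and MRPS14 every 4-OHT library lay below every DMSO library. MRPS27, whose groups touched, was at 37.3, 49.35 and 36.2 TPM against 54.6, 54.7 and 48.7 TPM (-0.37, adjusted p = 0.0402), and lost its call under 8 alternatives with an adjusted p of up to 0.149.

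The 3 MRPS18 paralogues occupy different places in the ribosome. MRPS18B was at 74.7, 68.1 and 63.8 TPM in 4-OHT and at 92.4, 87.8 and 88.3 TPM in DMSO, and fell (-0.38, SE 0.0658, adjusted p = 0.00277). MRPS18A, of the large subunit, was at 41.9, 39.9 and 43.8 TPM against 45.8, 48.3 and 44.8 TPM (-0.14, adjusted p = 0.0859). MRPS18C was at 50.6, 46.8 and 54.4 TPM against 48.1, 48.95 and 46.8 TPM (0.07, adjusted p = 0.386, and 0.19 with an adjusted p of 0.0461 under median-of-ratios scaling). The differences between the paralogues were not tested.

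Further members named for their role, their place in the ribosome or their level did not pass. MRPS12, of the decoding site, was at 56.3, 51.2 and 43.8 TPM against 46.5, 40.7 and 45.4 TPM (0.18, adjusted p = 0.177). Its groups overlapped, and it passed under median-of-ratios scaling (0.30, with an adjusted p of 0.0481) and on leaving out the third 4-OHT library (0.28, adjusted p = 0.0381). MRPS30 was at 30.3, 26.3 and 25.8 TPM against 28.1, 24.4 and 25.8 TPM (0.07, adjusted p = 0.545). MRPL51, the most abundant gene of the large subunit, stood at 248, 250 and 268 TPM against 287, 300 and 245 TPM, and the groups overlapped. Its log2 fold change of -0.12 (adjusted p = 0.262) became 0.01 under median-of-ratios scaling and passed the test without the third DMSO library (-0.20, adjusted p = 0.0215). The lowest member was MRPL42, at 10.3, 13.9 and 8.91 TPM against 10.3, 10.2 and 9.89 TPM (0.09, adjusted p = 0.641). In the small subunit the lowest was MRPS23, at 19.6, 20.5 and 18.2 TPM against 17.5, 19.95 and 18.4 TPM (0.06, adjusted p = 0.564).

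In 3 of the larger differences that did not pass, the call turned on 1 library or on the scaling (these genes were picked out after their values were seen). MRPL43 was at 101, 98.1 and 90.4 TPM in 4-OHT but at 92.4, 38.2 and 58.1 TPM in DMSO (0.70, adjusted p = 0.0743), and its DMSO libraries lay far apart. It passed without the first of them (1.02, adjusted p = 0.0044), was 0.39 without the second (adjusted p = 0.136), and passed under median-of-ratios scaling (0.82, adjusted p = 0.0456). MRPL37 was at 110, 131 and 122 TPM against 124, 78.7 and 81.2 TPM (0.37, adjusted p = 0.113), and passed under median-of-ratios scaling (0.49, adjusted p = 0.0487) or without the first DMSO library (0.58, adjusted p = 0.00227). MRPS16 was at 30.9, 58.2 and 51.9 TPM against 33.1, 27.2 and 27.8 TPM (0.62, adjusted p = 0.0536), and passed without the first 4-OHT library (0.89, adjusted p = 0.00117) as well as with all libraries after quantile normalization (0.65, adjusted p = 0.0376) or median-of-ratios scaling (0.73, adjusted p = 0.0271). For all 3 the groups overlapped through a single library. The members' median coefficient of variation was 6.61% in 4-OHT and 6.20% in DMSO. It was 9.38% and 8.74% over all entries tested, and 5.96% and 5.89% over those of at least 10 TPM. In 8 of the 78 members it exceeded 20% in a group, as it did in 923 of the 9078 entries of at least 10 TPM.

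Subunits that carry other names also went both ways. DAP3, a GTP-binding protein of the small subunit's head, rose from 122, 112 and 127 TPM in DMSO to 145, 150 and 143 TPM in 4-OHT (0.28, adjusted p = 0.00564). PTCD3 of the small subunit was at 27.8, 29.1 and 27.9 TPM against 34.1, 31.2 and 31.7 TPM and fell (-0.19, adjusted p = 0.0396). GADD45GIP1 of the large subunit was at 51.9, 59.3 and 52.3 TPM against 64.5, 64.4 and 62.4 TPM and fell (-0.22, adjusted p = 0.0235). CHCHD1 was at 68.4, 57.6 and 65.1 TPM against 81.4, 58.2 and 70.6 TPM, and AURKAIP1 at 185, 184 and 159 TPM against 175, 171 and 163 TPM, and neither passed.

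With the 5 subunits under other names counted in, 63 of 64 listed nuclear genes of mitochondrial gene expression were tested. Of these 12 rose and 12 fell (median -0.05), where 19.8% of all entries rose and 29.9% fell. The lists below leave those 5 subunits out, and their counts stand against the same shares. Of 3 initiation genes 2 fell: MTIF2 (28.9 ± 1.42 against 36.7 ± 2.41 TPM, log2 fold change -0.33) and MTIF3 (54.1 ± 3.35 against 69.5 ± 3.97 TPM, log2 fold change -0.36). None of the 4 elongation genes passed. Of 6 genes of release and recycling 2 rose and 2 fell. GFM2, which splits the ribosome after release, rose (50.6 ± 3.27 against 34.9 ± 3.03 TPM, 0.52), while the recycling factor MRRF (11.1 ± 0.720 against 19.2 ± 3.85 TPM, -0.73) and MTRFR, which frees peptides from stalled ribosomes and is listed as C12orf65 (16.2 ± 1.59 against 29.3 ± 2.08 TPM, -0.82), fell.

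Among 28 genes that assemble the ribosome or modify its RNA 6 fell and 1 rose (median -0.14). MRM1 (4.81 ± 0.879 against 7.69 ± 0.492 TPM, -0.59) and MRM2 (24.99 ± 3.43 against 35.4 ± 2.64 TPM, -0.49), which methylate the RNA of the large subunit, fell most. Of 4 genes for membrane insertion and messenger stability 2 rose. These were OXA1L, which receives the new chains at the inner membrane (116 ± 14.2 against 78.4 ± 0.953 TPM, 0.56), and LRPPRC, which stabilizes mitochondrial messengers (61.8 ± 1.18 against 54.4 ± 2.75 TPM, 0.18). Of 5 genes of mitochondrial transcription TFB2M rose (33.2 ± 1.64 against 26.2 ± 2.28 TPM, 0.33) and 4 did not pass. Of 8 tested regulators of nuclear genes for mitochondria 5 rose and none fell, with PPARGC1B (3.10 ± 0.953 against 0.467 ± 0.316 TPM, 1.48) and MYC (50.1 ± 7.26 against 32.4 ± 3.49 TPM, 0.61) ahead. PPARGC1B reached a mean of 1 TPM only through its 4-OHT values. PPARGC1A, listed with them but below that mean, was not tested and was lower in 4-OHT (0.355 ± 0.197 against 1.54 ± 0.608 TPM). Both ribosomal RNA entries of mitochondria, MT-RNR1 and MT-RNR2, and all 13 protein-coding entries of the mitochondrial genome were listed at 0 in all 6 libraries, so the RNA partners of these proteins have no values here.

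A property the choice by name did not use is how the genes lie in the genome. The 78 genes are spread over 21 chromosomes, with 8 each on chromosomes 1, 2 and 17 and 7 on chromosome 11. Of them 26 (33.3%) have a protein-coding gene on the other strand whose start lies within 1000 bases of their own, as in a promoter that serves both ways, against 1898 of 12200 tested protein-coding genes (15.6%). MRPL46 and MRPS11, of different subunits, are each other's neighbour with starts 34 bases apart. Neither passed the test (-0.06 and 0.03). Starts were those of the GENCODE 29 gene spans. Measured from the RefSeq start, which 24 of the 26 have, the neighbour lay within 1000 bases in 21, and farther away for MRPL36 (1563 bases), MRPL41 (1345 bases) and MRPL11 (27479 bases). By GENCODE starts, beside 12 called members the neighbour was called in the same direction in 4, in the opposite direction in 2 and not called in 6. Over all entries tested 49.6% were called. Of the 4 pairs in the same direction, those of MRPL36 and MRPL11 are not within 1000 bases by the RefSeq start, which leaves those of MRPL52 and MRPL14.

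The neighbours that moved with their member were NDUFS6 of respiratory complex I beside MRPL36 (34 bases between the GENCODE starts), the amino acid transporter SLC7A7 beside MRPL52 (59 bases), TMEM63B beside MRPL14 and PELI3 beside MRPL11. NDUFS6 was at 134 ± 2.71 against 112 ± 2.35 TPM (0.25) and SLC7A7 at 23.2 ± 2.29 against 5.44 ± 0.667 TPM (1.91). In the opposite direction, SKA3, of the kinetochore, fell by 2.2 log2 units (5.49 ± 1.33 against 28.4 ± 0.763 TPM) beside MRPL57, which rose by 0.17 but kept that call under only 5 of 13 alternatives, with an adjusted p of up to 0.105 (0.0911 with the replicate block). PPP1R10 rose by 0.52 beside MRPS18B. The cell division gene NCAPD2 (-1.63) lay beside MRPL51, EME1 (-1.60) beside MRPL27 and MTBP (-1.16) beside MRPL13, all of which did not pass. MRPL51, MRPL27 and MRPL13 had log2 fold changes of -0.12, -0.01 and 0.14.

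**Figure D5:**
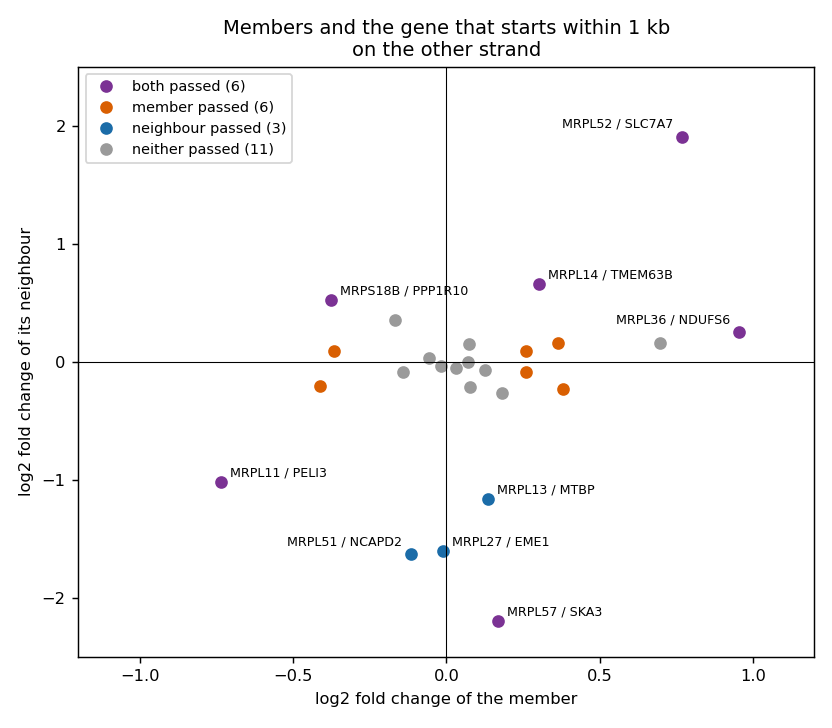
Log2 fold change of (TPM + 1), 4-OHT minus DMSO, of the 26 members with a protein-coding gene that starts within 1000 bases on the other strand (horizontal axis), against that of this neighbour (vertical axis); colour marks which of the pair passed the test. Starts are those of GENCODE. Of 12 called members 6 have a called neighbour, and 4 of these pairs lie in the same direction, among them those of MRPL36 and MRPL11, which are farther apart by the RefSeq start. MRPL46 and MRPS11 appear once each.

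Sequence before the start of transcription was taken from RefSeq (GRCh38.p14) as windows of 300 bases, from 250 before to 50 after the start, which were found for 69 of the 78 members. MRPL2, MRPL10, MRPL13, MRPL15, MRPL21, MRPL23, MRPL35, MRPS28 and MRPS36 were not matched. These windows were searched on both strands for 4 motifs of factors known for nuclear genes of mitochondria: GCGCA, any base and GCGC (NRF1), CCGGAAG (ETS factors such as GABP), AAGATGGCG (YY1) and GGGCGG (SP1). No motif contains another, and the NRF1 motif read on the other strand is GCGC, any base and TGCGC. The ETS motif was in 29 windows (42.0%), against 19.6% of the windows of tested genes and 10.3% of all windows. The YY1 motif was in 13 (18.8%, against 4.0% and 1.75%), the NRF1 motif in 8 (11.6%, against 12% and 5.78%) and the SP1 motif in 42 (60.9%, against 70.2% and 45%). Of 13 members that rose 5 had the NRF1 motif, as did 1 of 18 that fell and 2 of 38 that did not pass. The ETS motif was in 2, 7 and 20 of these, the YY1 motif in 4, 2 and 7 and the SP1 motif in 8, 9 and 25. No such split was made over all tested genes. A match describes the letters of the window and no binding was measured, and these shares were not tested.

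The 8 windows with the NRF1 motif are shown with 10 bases on either side. This motif was picked after the counts above were seen, and members held it about as often as tested genes (11.6% against 12%). A link between the motif and the rises was not tested. The motif is in capitals, on the gene's own strand from 5′ to 3′. MRPL36, MRPL17, MRPL30, MRPL14 and MRPL57 rose, MRPS9 fell, and MRPL45 and MRPS33 did not pass. The rise of MRPL57 lost its call under 8 of the 13 alternatives.
MRPL36 (chr5:1799928-1799957, minus strand): tcgcactccaGCGCCTGCGCactcgctgct
MRPL17 (chr11:6683402-6683431, minus strand): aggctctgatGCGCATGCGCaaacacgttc
MRPL30 (chr2:99181058-99181087, plus strand): tgatacccagGCGCCTGCGCtctctttcta
MRPL14 (chr6:44127412-44127441, minus strand): tgggcctggcGCGCAGGCGCtaggaagagg
MRPL57 (chr13:21176574-21176603, plus strand): cctcggctctGCGCAGGCGCagtcctctct
MRPS9 (chr2:105038019-105038048, plus strand): cgcgccattaGCGCCTGCGCcgtctctagg
MRPL45 (chr17:38296969-38296998, plus strand): ttgtctccctGCGCACGCGCggccgtactc
MRPS33 (chr7:141015088-141015117, minus strand): tagccttactGCGCAGGCGCcaggtacacc

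Longer stretches, free of annotated exons, are given for some of the largest changes described above, with every match to the 4 motifs in capitals. Not printed are the stretches of MRPL30 (NRF1), of MRPS17 and MRPS14 (SP1), and of MRPS35, MRPL9 and MRPS9 (no motif). MRPS6 is shown because of its 4.19-fold rise, and its stretch (chr21:34073328-34073522, plus strand) holds the SP1 motif on both strands and none of the other 3. MRPL36 (chr5:1799896-1800087, minus strand) and MRPL17 (chr11:6683402-6683590, minus strand) hold the NRF1 motif, the latter with SP1, and the short stretch between MRPL52 and SLC7A7 (chr14:22829821-22829878, plus strand) holds YY1. The stretches of MRPS6, MRPL36 and MRPL11 stand before their RefSeq starts, inside the longer GENCODE spans of these genes. Among the genes that fell, the stretches of MRPL11 (chr11:66438849-66439098, minus strand) and MRPL22 (chr5:154940823-154941069, plus strand) hold none of the motifs, and that of MRPS31 (chr13:40771191-40771440, minus strand) holds ETS and SP1. The last is the stretch between MRPL46 and MRPS11 (chr15:88467420-88467452, minus strand), on the strand of MRPL46. Outside the stretches shown, the full windows of MRPL22, MRPL36 and MRPL46 also hold YY1, and that of MRPL52 holds ETS.
MRPS6: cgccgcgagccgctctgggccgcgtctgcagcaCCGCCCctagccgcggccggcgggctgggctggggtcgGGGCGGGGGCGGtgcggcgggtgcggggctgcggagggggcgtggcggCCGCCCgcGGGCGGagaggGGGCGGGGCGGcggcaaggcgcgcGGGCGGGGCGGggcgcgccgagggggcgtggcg
MRPL36: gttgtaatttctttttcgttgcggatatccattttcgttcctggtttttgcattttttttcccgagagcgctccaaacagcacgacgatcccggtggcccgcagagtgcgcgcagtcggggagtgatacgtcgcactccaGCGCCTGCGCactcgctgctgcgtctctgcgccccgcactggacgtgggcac
MRPL17: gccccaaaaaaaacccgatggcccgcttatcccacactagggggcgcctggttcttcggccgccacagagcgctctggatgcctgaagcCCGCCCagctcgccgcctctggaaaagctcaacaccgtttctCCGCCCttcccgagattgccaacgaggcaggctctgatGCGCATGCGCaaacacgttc
MRPL52: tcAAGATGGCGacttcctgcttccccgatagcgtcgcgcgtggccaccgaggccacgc
MRPL11: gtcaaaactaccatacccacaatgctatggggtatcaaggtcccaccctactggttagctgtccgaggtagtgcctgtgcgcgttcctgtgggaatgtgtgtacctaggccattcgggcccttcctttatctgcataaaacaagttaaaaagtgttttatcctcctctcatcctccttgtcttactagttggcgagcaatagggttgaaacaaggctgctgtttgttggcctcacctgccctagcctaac
MRPL22: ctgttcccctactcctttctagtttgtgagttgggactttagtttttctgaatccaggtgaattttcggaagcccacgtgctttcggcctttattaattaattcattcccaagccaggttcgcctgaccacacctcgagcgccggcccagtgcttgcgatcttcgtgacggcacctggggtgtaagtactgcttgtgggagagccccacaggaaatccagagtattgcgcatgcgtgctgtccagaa
MRPS31: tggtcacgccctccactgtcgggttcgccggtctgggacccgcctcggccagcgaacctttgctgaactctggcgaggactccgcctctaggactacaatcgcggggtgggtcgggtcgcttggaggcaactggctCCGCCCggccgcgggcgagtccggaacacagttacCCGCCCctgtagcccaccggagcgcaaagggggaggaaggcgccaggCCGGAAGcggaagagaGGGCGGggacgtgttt
MRPL46: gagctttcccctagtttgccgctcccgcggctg

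Some of the values may include reads of other genes. For 34 members there are entries of pseudogene copies, 75 in all, of which 4 reached a mean of 1 TPM (MRPL45P2, MRPS31P5, MRPS31P4 and MRPS36P1, at 4.37, 1.84, 1.72 and 1.16 TPM). In addition, 10 members share exon sequence on the same strand with another gene of at least 1 TPM, MRPS6 among them, and 21 overlap an exon of such a gene on the other strand, which counting without strand would not separate. The strand setting is not given in the sources used here. The values of these members are uncertain to that extent.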

How the data were processed

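TPM of 59050 entries, each named by a gene symbol, were taken as deposited by the authors for 6 libraries, each with a TPM sum from 998367 to 998843. The authors trimmed reads with Trim Galore 0.6.6 and used STAR, StringTie and GRCh38, per the submitters' processing notes. Which annotation and strand setting they used is not given in the sources used here. Total RNA (1 µg) went into each library, per the labels' protocols. In the deposited column of DMSO replicate 3, 1 value was just under 0 and was replaced by 0. TPM leave the depth unknown, so no counting interval is given.

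Groups were taken from the sample titles, and 4-OHT was compared with DMSO over entries with a mean of at least 1 TPM on log2(TPM + 1), 2-sided and with no covariate, by lmFit and eBayes (variance trend on) of limma 3.58.1 in R 4.3.3. A fold change on this scale is understated for low genes. Benjamini-Hochberg adjustment of the p-values ran over all 15272 entries tested, with a threshold of 0.05; the script was tested on simulated data. No test over a list of genes was made. The members and all gene lists were chosen with earlier results of these data known.

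Library values are given for the 4 largest called rises and falls of each subunit, for members fixed by role, for subunits under other names, for the 2 largest called changes of each list around the ribosome, and for the highest and lowest member of each subunit. Other members named were chosen after their values were seen. Positions, exons and neighbours come from GENCODE 29, in which all 78 members had 1 match. Alternatives were median-of-ratios scaling, quantile normalization, a pseudocount of 0.1, a minimum of 5 TPM or none, no variance trend, a replicate block and leaving out each library. Python 3.11.15, pandas 2.3.3, numpy 2.4.6 and matplotlib 3.10.9 were used for tables and plots.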

Additional observations from a re-analysis of the deposited data

How the results depend on the processing

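Of 32 called members 20 (9 higher and 11 lower) kept their call under all 13 alternatives, and no called member turned direction under any of them. Median-of-ratios scaling gave 24 rises and 12 falls in all, 18 and 7 in the large and 6 and 5 in the small subunit. It put the members' scaled sum at 0.650% of the unscaled TPM total in 4-OHT and 0.548% in DMSO, against 0.631% and 0.579% as deposited. The members' share within a library is unchanged by this scaling, which multiplies all its entries by the same factor. The falls of the small subunit numbered 5 with no filter on low values and also with no variance trend. Without the members that share exon sequence with another gene, an alternative chosen after seeing the data, 1 gene of the small subunit rose. Leaving out each library in turn gave 10 to 13 rises and 15 to 18 falls in all, 8 to 11 rises and 9 to 11 falls in the large subunit, and 1 to 3 rises and 5 to 7 falls in the small subunit. The falls of the small subunit were fewest without 4-OHT replicate 1 or 3, and its rises fewest without DMSO replicate 1. The difference of the subunits' medians ranged from 0.0427 (without 4-OHT replicate 3) to 0.126 in these fits, which hold 5 libraries. With the replicate number as a block, 10 members rose and 18 fell, 7065 of all entries were called against 7579, and the large subunit had 8 rises and 11 falls and the small subunit 2 and 7. Deviations of same-numbered libraries correlated by 0.0475, 0.00549 and 0.00664, and 4-OHT replicate 3 correlated best with DMSO replicate 2 (0.0497). Correlations this weak cannot tell whether same-numbered libraries were handled together, which the labels do not say. Members that did not pass the test changed sign in some fits. Under median-of-ratios scaling MRPL51 was at 0.0052, MRPL46 at 0.0616, MRPL45 at 0.0175 and MRPL27 at 0.108 log2 units. On leaving out each library the log2 fold change ranged from -0.0019 to 0.122 for MRPS30, from -0.0719 to 0.222 for MRPL42, from -0.0011 to 0.0701 for MRPS11, from -0.0267 to 0.171 for MRPL10 and from -0.277 to 0.164 for MRPL27. The cause of these changes was not tested. TPM carry no depth, so precision rests on 3 libraries a group alone.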

Other observations

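MMP14, a membrane-bound matrix protease that starts downstream of MRPL52 on the same strand, stood at 1838 ± 16.8 TPM in 4-OHT and 541 ± 32.9 TPM in DMSO (log2 fold change 1.76). It was picked with its values in view. PPARGC1A, a coactivator of genes for mitochondria that was listed with PPARGC1B, had a mean below 1 TPM and was not tested. It was read at 0.583, 0.246 and 0.237 TPM in 4-OHT and at 0.938, 1.53 and 2.15 TPM in DMSO, whereas PPARGC1B was read at 4.17, 2.35 and 2.78 TPM against 0.349, 0.227 and 0.825 TPM. For both genes the groups did not overlap, in opposite directions, and both were low.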
